A study of Mus musculus with 6 samples.

Results

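The matrix metalloproteases are zinc-dependent endopeptidases that cut collagens, laminins and other proteins of the extracellular matrix, and the Timp proteins are their natural inhibitors. Described here are 6 of these proteases (Mmp2, Mmp3, Mmp9, Mmp11, Mmp14 and Mmp15) and 3 inhibitors (Timp1, Timp2 and Timp3). They were chosen by gene name, as all array probes that are not controls and whose accession or description names one of them. Each of the 9 genes had 1 probe, so they are 9 of the 9574 genes that could be named on the array and take 9 of its 20868 probes.

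The study set keratinocytes of the hair follicle bulge apart from other basal keratinocytes. Skin of adult mice, 7 weeks old, was digested with trypsin, and cells carrying the alpha-6 integrin were sorted by flow cytometry into a CD34+ and a CD34- fraction. The labels call alpha6+CD34+ cells stem and progenitor cells and alpha6+CD34- cells basal cells. They give no strain, sex or treatment and do not say how many mice made up a replicate. Both fractions of each of 3 biological replicates shared 2 arrays, once in each dye orientation, which gives 6 arrays and n = 3. Unless an alternative setting is named, p-values therefore rest on the spread between 3 replicates, which the fit draws towards the spread of all probes. The number of replicates limits the precision. The RNA is that of whole sorted fractions, in which fewer cells of a type and less RNA per cell cannot be told apart.

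Most metalloproteases are secreted as inactive proenzymes and are switched on when the propeptide is cut off. Mmp14, which is anchored in the plasma membrane, activates the proenzyme of the gelatinase Mmp2 at the cell surface, and Timp2 acts both as the bridge in that complex and, in excess, as its inhibitor. Timp3 differs from the other inhibitors in binding to the matrix, and it also inhibits sheddases of the ADAM and ADAMTS families. In skin these enzymes are known from wound repair, follicle growth and remodelling of the basement membrane on which basal keratinocytes sit.

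Of the 9 genes, 1 rose and 2 fell in CD34+ cells, 5 did not pass the test, and 1 was too dim to be tested. Mmp2 rose, Mmp3 and Timp3 fell, and Timp1 was not well above background. A gene passed at a Benjamini-Hochberg adjusted p under 0.05 in limma, fitted and adjusted over all 20214 probes tested. The background to the count of 3 called genes among 8 tested is that 12.0% of all probes tested passed, 5.38% higher and 6.65% lower in CD34+ cells. With so few genes the 2 shares cannot be usefully compared. The median log2 ratio of CD34+ over CD34- cells was 0.047 over the 8 tested genes and 0.0040 over all tested probes. All 8 were well above background in both populations on 6 of 6 arrays, and none was saturated. Of all 20214 probes tested, 18166 met the same background rule, so it does not set these genes apart.

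**Figure D1:**
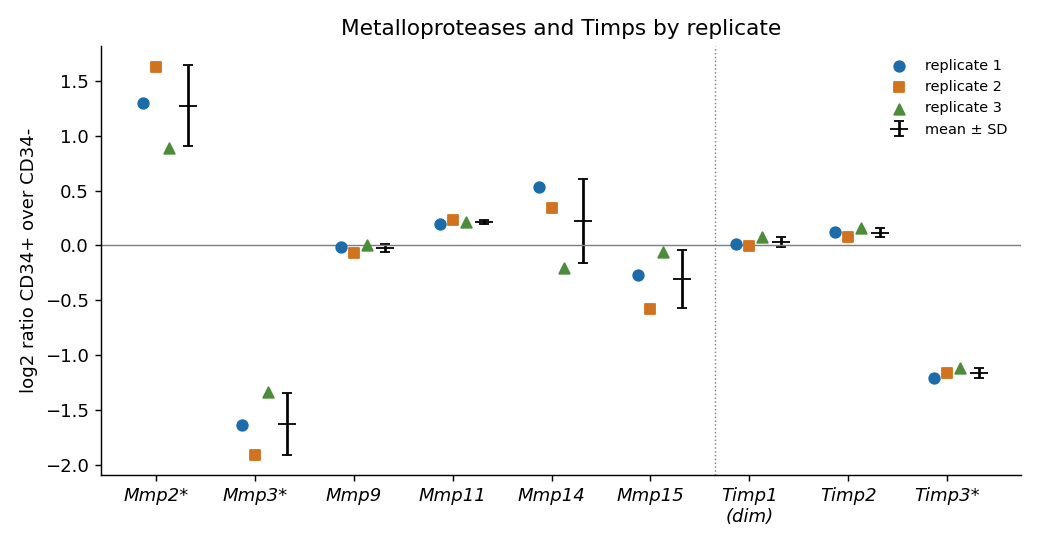
Log2 ratio of CD34+ over CD34- cells (vertical axis) for the 9 genes (horizontal axis), with 1 point for each of the 3 replicates and the mean ± SD as a bar; an asterisk marks an adjusted p under 0.05 and dim marks the gene not tested. The points of Mmp2 lie between 0.89 and 1.63, those of Timp3 between -1.21 and -1.11 and those of Mmp3 between -1.91 and -1.34, while the points of Mmp9, Timp1, Timp2 and Mmp11 all lie between -0.064 and 0.23.

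The gelatinases Mmp2 and Mmp9 cut denatured collagen and the type IV collagen of basement membranes. Mmp2 had a brightness, the log2 intensity of a population after normalisation, of 11.57, 11.93 and 11.38 in the CD34+ cells of replicates 1, 2 and 3, and of 10.27, 10.30 and 10.49 in their CD34- cells. The lowest CD34+ value lay above the highest CD34- value, so the populations did not overlap. The log2 ratio was 1.30, 1.63 and 0.89 in the 3 replicates, with a mean of 1.27 ± 0.37 (SD, n = 3), and CD34+ cells were higher on 6 of 6 arrays. That is a 2.42-fold difference, with a 95% confidence interval of 0.87 to 1.68 on the log2 scale and an adjusted p of 0.0216 in limma. By size of the rise Mmp2 stood at rank 155 among the 20214 probes tested. The call was lost without replicate 1 (1.26, adjusted p 0.109), without replicate 2 (1.10, adjusted p 0.0557) and without background correction (1.12, adjusted p 0.0848). No probe of the array passed without replicate 1, and 13 of the 20214 did without background correction.

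Mmp9, the other gelatinase, gave nearly the same brightness in both fractions. It measured 7.24, 7.19 and 7.08 in CD34+ cells and 7.25, 7.26 and 7.08 in CD34- cells. The mean log2 ratio was -0.0245 ± 0.035 (SD, n = 3), and the 95% confidence interval ran from -0.14 to 0.096, with an adjusted p of 0.755 in limma. A difference of the size measured for Mmp2 lies far outside that interval. The interval holds only for the signal of this probe, at brightness percentile 35.2 of the probes tested against 96.0 for Mmp2. The background offset understates changes more at such dim probes, and how much of the signal is Mmp9 transcript was not tested.

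The stromelysin Mmp3 cuts laminin, fibronectin, proteoglycans and other non-fibrillar matrix proteins, and it activates the proenzymes of other metalloproteases. Mmp3 and Timp3 are the 2 genes called lower in CD34+ cells, and their promoters are shown to set their starts side by side. The 250 bases before each start come from RefSeq, assembly GRCm38.p6, both on the plus strand. Capitals mark motif matches on either strand: TGANTCA, bound by AP-1 factors, and TATAAA, the TATA box, in Mmp3, and the GC box GGGCGG, read here as its complement, in Timp3.
Mmp3, chr9:7445572-7445821: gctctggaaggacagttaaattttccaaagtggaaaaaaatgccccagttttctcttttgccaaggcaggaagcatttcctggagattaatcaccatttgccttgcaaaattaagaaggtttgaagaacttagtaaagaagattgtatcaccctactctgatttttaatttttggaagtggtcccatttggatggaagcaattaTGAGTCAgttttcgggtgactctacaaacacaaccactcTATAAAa
Timp3, chr10:86300162-86300411: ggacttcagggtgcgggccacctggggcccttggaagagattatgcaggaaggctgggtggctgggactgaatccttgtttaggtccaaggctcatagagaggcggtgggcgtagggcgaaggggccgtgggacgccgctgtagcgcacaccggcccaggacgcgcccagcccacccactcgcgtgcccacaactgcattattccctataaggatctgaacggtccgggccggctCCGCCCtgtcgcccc
The Mmp3 window holds 1 AP-1 match, which begins 46 bases before the start, and 1 TATA match, which begins 7 bases before it, and no GC box. The Timp3 window holds 1 GC box and neither of the other motifs. Its G and C bases make up 65.6% of the window, against 37.6% in Mmp3. Of 32851 such windows in the table, 6.75% held the AP-1 motif, 12.4% the TATA motif and 32.7% the GC box. The table lists 7 of the 9 genes, not Mmp2 and Mmp9, and of those 7, 1 held the AP-1 motif, 1 the TATA motif and 6 the GC box. These matches describe letters and are not sites or causes.

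Mmp3 had the largest fall of the 9 genes, except without background correction, where Timp3 fell further (-0.72 against -0.88). Its brightness was 7.04, 6.60 and 6.99 in the CD34+ cells of replicates 1, 2 and 3 and 8.67, 8.51 and 8.33 in their CD34- cells. Every CD34+ value lay below every CD34- value. The log2 ratio was -1.63, -1.91 and -1.34, with a mean of -1.63 ± 0.28 (SD, n = 3), and CD34+ cells were lower on 6 of 6 arrays. That is a 3.09-fold lower level in CD34+ cells, with a 95% confidence interval of -1.95 to -1.30 and an adjusted p of 0.0128 in limma. It ranked at 52 among the falls of all 20214 probes tested. The size depends on the background correction: it was -2.31 on the log10 ratios deposited by the authors (rewritten as log2), -2.26 with a background offset of 0 and -0.72 without correction, where the adjusted p was 0.0658. Without replicate 1 the ratio stayed at -1.62 but the adjusted p was 0.0902. No probe of the array passed without replicate 1, and 13 did without background correction.

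Mmp11, also called a stromelysin by family, is activated inside the cell by furin and cuts few matrix proteins. Its log2 ratio was 0.20, 0.23 and 0.22, with a mean of 0.21 ± 0.018 (SD, n = 3), and CD34+ cells were higher on 6 of 6 arrays. The brightness, at 6.96, 6.84 and 7.16 in CD34+ cells against 6.76, 6.61 and 6.94 in CD34- cells, overlapped between the fractions over the replicates. The adjusted p was 0.0507 in limma, just outside the threshold. In 6 of 17 alternative settings it passed, with adjusted p-values from 0.0143 to 0.0499, among them the deposited log10 ratios, which gave 0.42 with an adjusted p of 0.0352. Over all 17 alternatives the adjusted p ran from 0.0143 to 0.743.

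**Figure D2:**
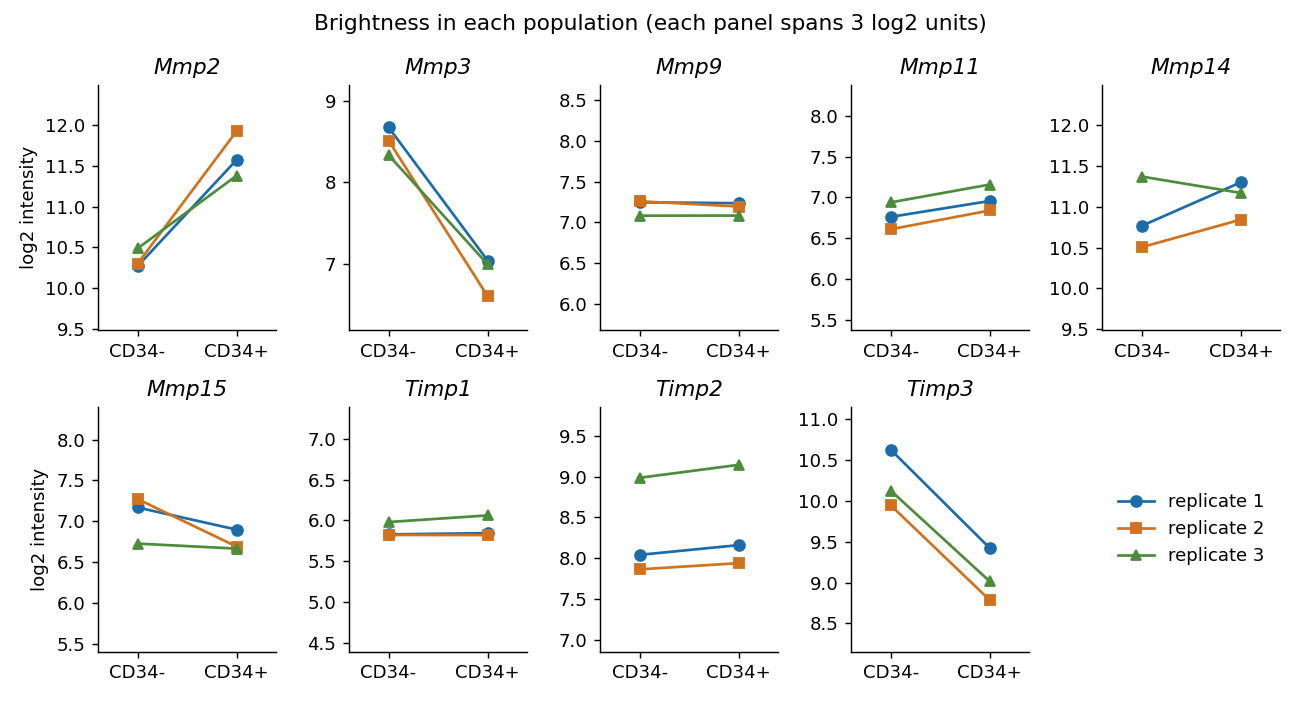
Brightness (log2 intensity after normalisation, vertical axis) of the 9 genes in CD34- and CD34+ cells, with a line joining the fractions of each of the 3 replicates. The lines of Mmp2 rise and those of Mmp3 and Timp3 fall in all 3 replicates without overlap between the fractions, and the lines of Mmp14 cross. Levels of different genes come from different probes and are not to be compared.

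The membrane-anchored proteases Mmp14 and Mmp15 cut matrix at the cell surface. Mmp14, the activator of Mmp2, did not move with it in every replicate. Its log2 ratio was 0.53, 0.34 and -0.20, with a mean of 0.22 ± 0.38 (SD, n = 3), and CD34+ cells were higher on 4 of 6 arrays. The brightness was 11.30, 10.84 and 11.17 in CD34+ cells and 10.77, 10.51 and 11.37 in CD34- cells. Replicate 3, which ran the other way, is also the replicate whose 2 arrays were read with version A.6.1.1 of the scanner software in place of A.7.5.1. A term for the software version left the log2 ratio of Mmp14 at 0.22, and its spread was then judged from replicates 1 and 2 alone. Version A.6.1.1 was used for 1 replicate, so the version and the replicate cannot be told apart. Over all replicates the adjusted p of Mmp14 was 0.403 in limma, and without replicate 3 it was 0.0245 with a log2 ratio of 0.44. The 95% confidence interval over all replicates, -0.20 to 0.65, holds both no difference and a rise of moderate size.

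Mmp15 was lower in CD34+ cells on 6 of 6 arrays but did not pass. Its log2 ratio was -0.27, -0.58 and -0.061, with a mean of -0.31 ± 0.26 (SD, n = 3), an unadjusted p of 0.0488 and an adjusted p of 0.160 in limma. Its brightness was 6.90, 6.69 and 6.66 in CD34+ cells and 7.17, 7.27 and 6.73 in CD34- cells, which overlapped. Without replicate 3 the log2 ratio was -0.43 with an adjusted p of 0.0491.

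Among the inhibitors Timp3 fell, with the most uniform ratios of the 3 called genes. Its brightness was 9.42, 8.78 and 9.01 in the CD34+ cells of replicates 1, 2 and 3 and 10.63, 9.95 and 10.13 in their CD34- cells. Replicate 1 was the brightest in both fractions, and every CD34+ value lay below every CD34- value. The log2 ratio was -1.21, -1.16 and -1.11, with a mean of -1.16 ± 0.047 (SD, n = 3), lower on 6 of 6 arrays. That is a 2.24-fold lower level, with a 95% confidence interval of -1.29 to -1.04 and an adjusted p of 0.00592 in limma, and a rank of 207 among the falls of all probes tested. The call was lost when the pairing of the fractions was ignored and no replicate block was fitted (adjusted p 0.0611), without replicate 1 (-1.14, adjusted p 0.0902) and without background correction (-0.88, adjusted p 0.0528). As for the other called genes, no probe of the array passed without replicate 1 and 13 did without background correction.

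Timp2, the inhibitor that also takes part in Mmp2 activation, was higher in CD34+ cells on 6 of 6 arrays by a small amount and did not pass. Its log2 ratio was 0.12, 0.076 and 0.16, with a mean of 0.12 ± 0.042 (SD, n = 3). The 95% confidence interval ran from -0.0045 to 0.24, and the adjusted p was 0.174 in limma. Its brightness was 8.16, 7.94 and 9.14 in CD34+ cells and 8.04, 7.86 and 8.99 in CD34- cells, so replicate 3 was the brightest in both fractions.

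Timp1, a secreted inhibitor of most metalloproteases, was well above background on 1 of 6 arrays in each fraction and was not tested. Its brightness lay between 5.82 and 6.06 in CD34+ cells and between 5.82 and 5.98 in CD34- cells. With no filter on dim probes its log2 ratio was 0.03 with an adjusted p of 0.690 in limma, which says nothing about a transcript that the probe did not measure above background.

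The 3 called genes had the same direction in both dye orientations. Averaged over the 3 arrays with CD34+ cells in Cy5, and over the 3 with CD34+ cells in Cy3, the log2 ratio was 1.24 and 1.31 for Mmp2, -1.74 and -1.52 for Mmp3, and -1.28 and -1.05 for Timp3. Mmp14 gave 0.12 and 0.33 in the same order, Mmp15 -0.38 and -0.23, Mmp11 0.28 and 0.15, and Timp2 0.17 and 0.068. Of the 8 tested genes, 6 kept 1 sign over the 6 arrays, against 32.1% of all tested probes. The brightness of the fractions did not overlap for 3 of the 8, against 16.1% of all tested probes.

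**Figure D3:**
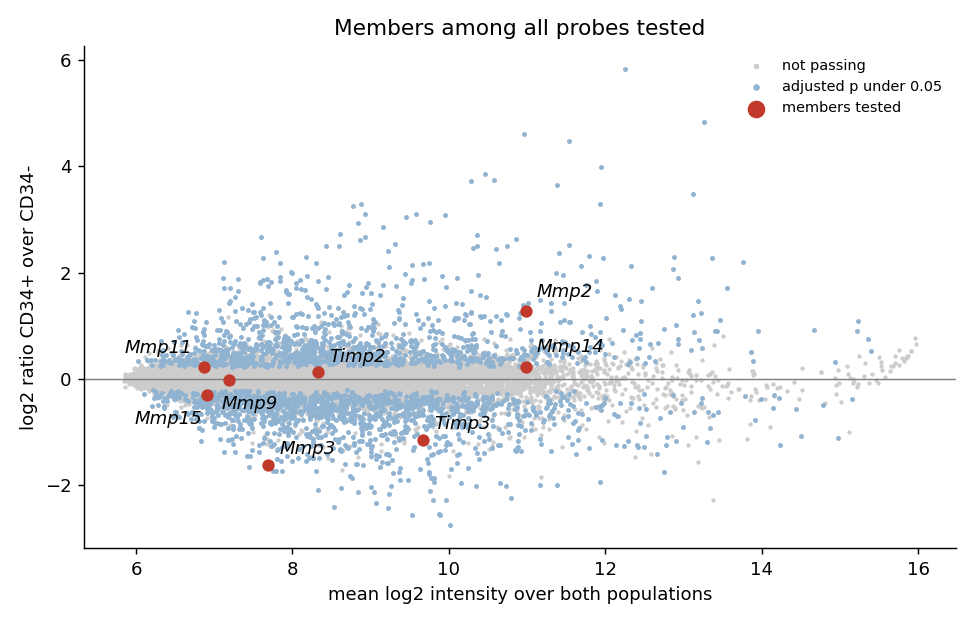
Mean log2 ratio of CD34+ over CD34- cells (vertical axis) against mean brightness over both fractions (horizontal axis) for all 20214 probes tested, with probes at an adjusted p under 0.05 in blue, the others in grey, and the 8 tested genes in red with their names. Mmp2 stands at 1.27, Timp3 at -1.16 and Mmp3 at -1.63, away from the bulk of the probes, which centres on 0.0040.

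The ratios of 2 genes can be set against each other within a replicate, where a difference says that the genes did not change alike. Mmp2 minus Timp3 was 2.51, 2.79 and 2.01 in the 3 replicates, with a mean of 2.44 ± 0.40 (SD, n = 3). Mmp2 minus Timp2 had a mean of 1.16 ± 0.41, and Mmp2 minus its activator Mmp14 was 0.77, 1.29 and 1.09, with a mean of 1.05 ± 0.26. Mmp2 had the higher ratio of each pair in 3 of 3 replicates. Among the inhibitors, Timp2 minus Timp3 was 1.33, 1.24 and 1.27, with a mean of 1.28 ± 0.044, the tightest of the 6 differences computed. Mmp3 minus Timp3, of the 2 genes that fell, had a mean of -0.47 ± 0.26, with Mmp3 the lower in 3 of 3 replicates. That difference turned to 0.16 without background correction and was -1.03 with a background offset of 0 and -1.06 on the deposited log10 ratios, so its direction rests on the correction. Mmp14 minus Timp2 turned too, to -0.049 at the lowest of 17 alternatives, while the other 4 differences kept their sign in all 17. Alternatives that changed only the filter on dim probes, the terms of the fit or the choice of probe left every difference as reported by construction. Mmp14 minus Timp2 was 0.41, 0.26 and -0.36, with no common direction. These differences were chosen from genes with known values and carry no test.

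The other genes of matrix proteolysis were taken from lists by role. Of 64 such genes 57 had a named probe and 51 were tested, of which 8 rose, 2 fell and 41 did not pass, with a median log2 ratio of 0.012 against 0.0040 over all probes. The share of all tested probes that passed was 12.0%, as above.

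None of the 14 tested members of the list of other metalloproteases, Timp4 and the membrane-bound inhibitor Reck passed in limma, and the list median was 0.031. The smallest adjusted p, 0.0660, belonged to the membrane-type protease Mmp24, with log2 ratios of 0.16, 0.48 and 0.41 and a mean of 0.35 ± 0.17 (SD, n = 3). The protease Mmp16, outside the rule for named genes, was not well above background and was not tested.

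In plasminogen activation, the protease cascade that yields plasmin, 1 of 6 tested genes rose and none fell, with a median of -0.011. The gene that rose was Plat, tissue plasminogen activator, at 0.26, 0.51 and 0.41, with a mean of 0.40 ± 0.12 (SD, n = 3, limma adjusted p 0.0352). The Plat call was lost in 4 of 17 alternatives, including that without replicate 1 (adjusted p 0.102), that without replicate 2 (adjusted p 0.178) and the unpaired fit (adjusted p 0.119). Serpinb2, Plaur and Serpinf1, also outside that rule, were left out because a spot on 1 array was marked as an outlier. Serpinb2, an inhibitor of plasminogen activators, had log2 ratios of -2.34, -3.35 and -1.37 over the arrays left, and with the marked spot kept its mean was -2.43 with a limma adjusted p of 0.0452. It is named here after its values were seen.

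Of 10 tested proprotein convertases and surface partners of the proteases, 2 fell and none rose, with a median of -0.074. Thbs2, a matricellular glycoprotein that takes part in the uptake of Mmp2 into cells, had a brightness of 7.75, 7.42 and 7.08 in CD34+ cells and 9.38, 9.25 and 8.81 in CD34- cells, without overlap. Its mean log2 ratio was -1.73 ± 0.10 (SD, n = 3), a 3.32-fold lower level with a limma adjusted p of 0.00454. Bsg, or basigin, a surface glycoprotein known as an inducer of metalloproteases, fell by 0.62 ± 0.15 (SD, n = 3, limma adjusted p 0.0210), and its call was lost in 5 of 17 alternatives. Furin, the convertase that cuts the propeptides of Mmp11 and Mmp14, gave 0.0051, -0.51 and -0.20 in the 3 replicates and did not pass (limma adjusted p 0.245). Furin too is named here after its values were seen.

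None of the 6 tested sheddases that Timps inhibit passed in limma, with a median of 0.039. The smallest adjusted p was 0.193, for the aggrecanase Adamts4 at 0.28 ± 0.26 (SD, n = 3).

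In the list of matrix substrates, 7 of 15 tested genes rose and none fell, with a median of 0.28. Of all tested probes 5.38% were called higher and 6.65% lower in CD34+ cells. The list was chosen with earlier results known, so the shares carry no test. Postn, or periostin, a matricellular protein, had the largest rise, with a brightness of 14.64, 15.21 and 14.77 in CD34+ cells and 11.11, 11.53 and 11.52 in CD34- cells. Its mean log2 ratio was 3.49 ± 0.22 (SD, n = 3, limma adjusted p 0.00357), 11.2-fold higher. Tnc, or tenascin C, rose by 2.17 ± 0.45 (limma adjusted p 0.0150), and Col1a2, a chain of type I collagen, by 1.02 ± 0.12 (limma adjusted p 0.0104). The other risers, named after their values were seen, were the basement membrane and hemidesmosome genes Col17a1 at 0.67, Hspg2 at 0.65, Col4a1 at 0.62 and Lama5 at 0.42. The call was lost in 5 of 17 alternatives for Col17a1 and Col4a1, in 4 for Hspg2 and Lama5, in 3 for Col1a2 and in 2 for Postn and Tnc. Hspg2 has 2 further probes, which gave 0.11 and 0.037 and did not pass. Sparc, another matricellular gene and also named after its values were seen, was left out for an outlier mark, with 2.32, 2.53 and 1.83 over the arrays left. With the marked spot kept its mean was 2.21 with a limma adjusted p of 0.0138. No gene of these lists passed without replicate 1, when no probe of the array did, while 4648 probes had an unadjusted p under 0.05 there.

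**Figure D4:**
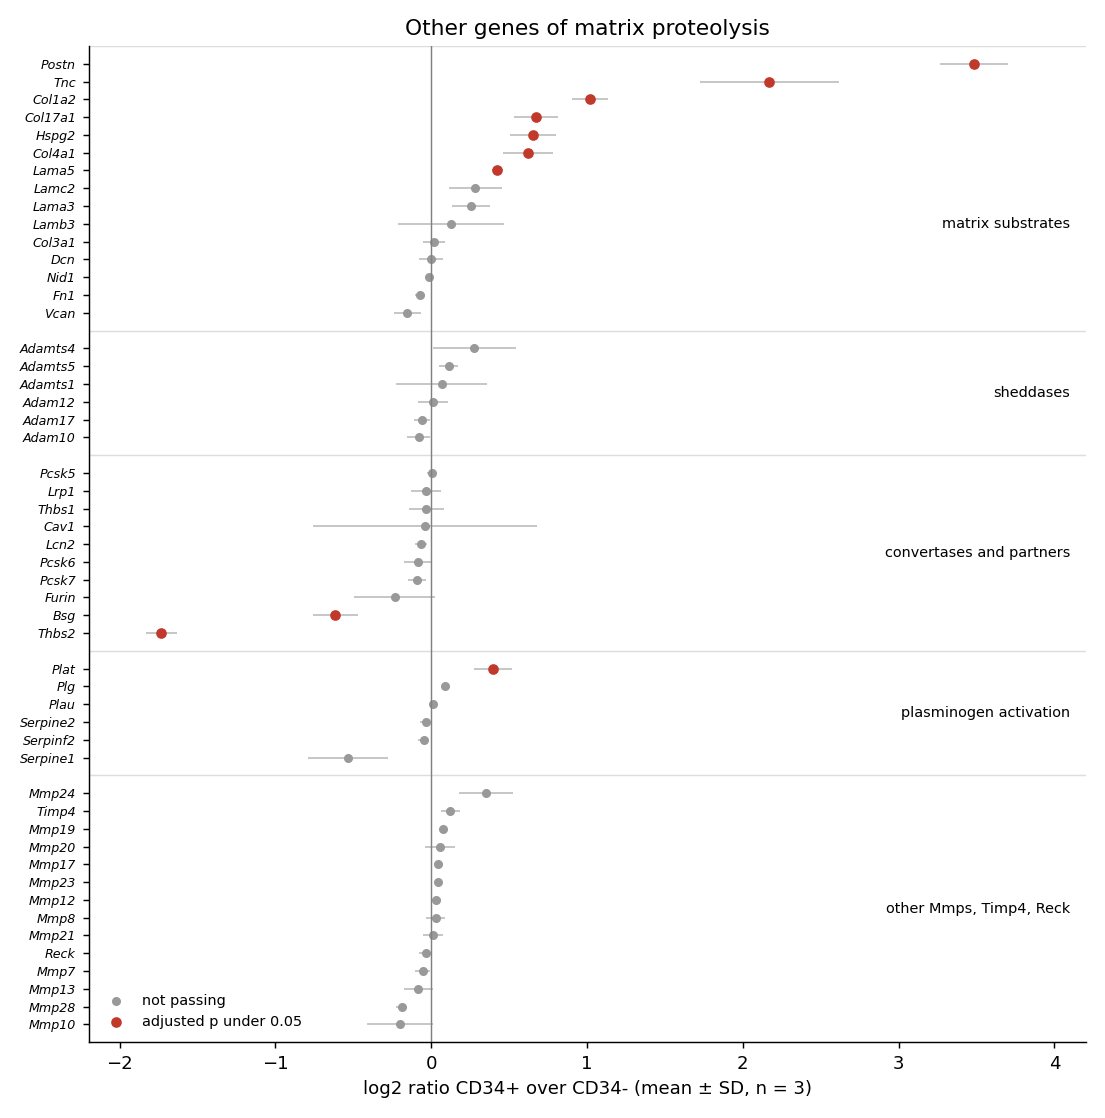
Mean log2 ratio of CD34+ over CD34- cells ± SD (horizontal axis, n = 3) for the 51 listed genes of matrix proteolysis in 5 role lists (rows), with genes at an adjusted p under 0.05 in red. The red points are 7 matrix substrates on the right, led by Postn at 3.49, then Plat at 0.40, Bsg at -0.62 and Thbs2 at -1.73.

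The sort and the other cells that a fraction could hold were checked on marker genes. Cd34 rose by 5.84 ± 0.43 (SD, n = 3, limma adjusted p 0.00365) on 6 of 6 arrays, which checks the sort and the direction of the dyes, and Itga6, present in both gates, fell by 1.18 ± 0.27 (limma adjusted p 0.0180). Among bulge markers 6 of 7 tested rose. The bulge marker that did not pass, named after its values were seen, was Krt15, at 0.77 ± 0.52 (limma adjusted p 0.0932). Its probe was saturated in CD34+ cells on 6 of 6 arrays and in CD34- cells on 3 of 6. Among keratinocyte markers 1 of 4 tested changed, Krt14, at -1.11 ± 0.41, whose probe was saturated in CD34- cells on 4 of 6 arrays. Mmp2, Timp3 and matrix genes are also made by fibroblasts, of whose markers 1 of 8 tested rose, Col1a2, and none fell. Sparc, the ninth fibroblast marker with a probe, was not tested but was higher in CD34+ cells on 5 of 5 arrays with a value, as given above. The summed intensity of the fibroblast list with Sparc was 2806 to 5370 in CD34+ cells and 1634 to 2018 in CD34- cells, so the fractions did not overlap. Without Sparc it was 1545 to 1798 and 1259 to 1380. Of the other markers, named here after their values were seen, Lum gave 0.34 ± 0.22 and was higher on 6 of 6 arrays, Vim 0.20 ± 0.60, Pdgfra 0.074 ± 0.024, Col3a1 0.019 ± 0.069, Dcn -0.0042 ± 0.077, Pdgfrb -0.10 ± 0.095 and Thy1 -0.14 ± 0.070, and none of these 7 passed in limma. Mmp9 is also made by neutrophils and macrophages. None of 5 neutrophil markers passed in limma, with summed intensities of 451 to 620 in CD34+ and 453 to 574 in CD34- cells. Of 9 Langerhans cell and macrophage markers none rose and Tyrobp fell by 0.24 ± 0.046, with sums of 1537 to 2162 and 1645 to 2407. Some of these markers, named here after their values were seen, turned sign between replicates. In replicates 1, 2 and 3 Cd207 gave 0.74, -1.11 and -0.038 and Cd74 gave 0.20, -0.99 and -0.46. Csf1r turned the other way, at -0.19, -0.20 and 0.21. Of 3 endothelial markers none passed, with sums of 347 to 418 and 347 to 420. Of 5 melanocyte markers 2 rose, Dct and Mitf, with sums of 734 to 1131 and 552 to 778. None of 4 T cell and 4 mast cell markers passed in limma. The T cell sums were 2242 to 3134 in CD34+ and 1765 to 2743 in CD34- cells, with a median log2 ratio of 0.24. The mast cell sums were 570 to 711 and 554 to 654, with a median of 0.065. Of 3 suprabasal markers Lor rose by 1.51 ± 0.18 and Krt1 fell by 2.28 ± 1.10. The part of any of these cells in the values of the metalloproteases and inhibitors was not tested.

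The genes whose ratios were most like those of the 3 called genes were sought by the Euclidean distance of the log2 ratios over the 6 arrays, among 9317 named genes. For Mmp2 they were Prkd1, a protein kinase, at a distance of 0.250 and a mean log2 ratio of 1.24, the neurotrophin Bdnf at 0.283 and 1.27, and Dram1, a lysosomal membrane protein, at 0.327 and 1.21. The Dram1 probe is named through its accession, while the array's own description names another protein. For Mmp3 they were Ly6a, a surface protein also called Sca-1, at 0.238 and -1.60, the G protein subunit Gna14 at 0.318 and -1.73, and the centromere histone Cenpa at 0.393 and -1.55. For Timp3 they were the nuclear receptor Ppara at 0.249 and -1.17, and the mitosis and cytokinesis genes Kif20a at 0.286 and -1.09 and Racgap1 at 0.343 and -1.05. The measure finds genes with the same ratio on each array and says nothing else of them.

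**Figure D5:**
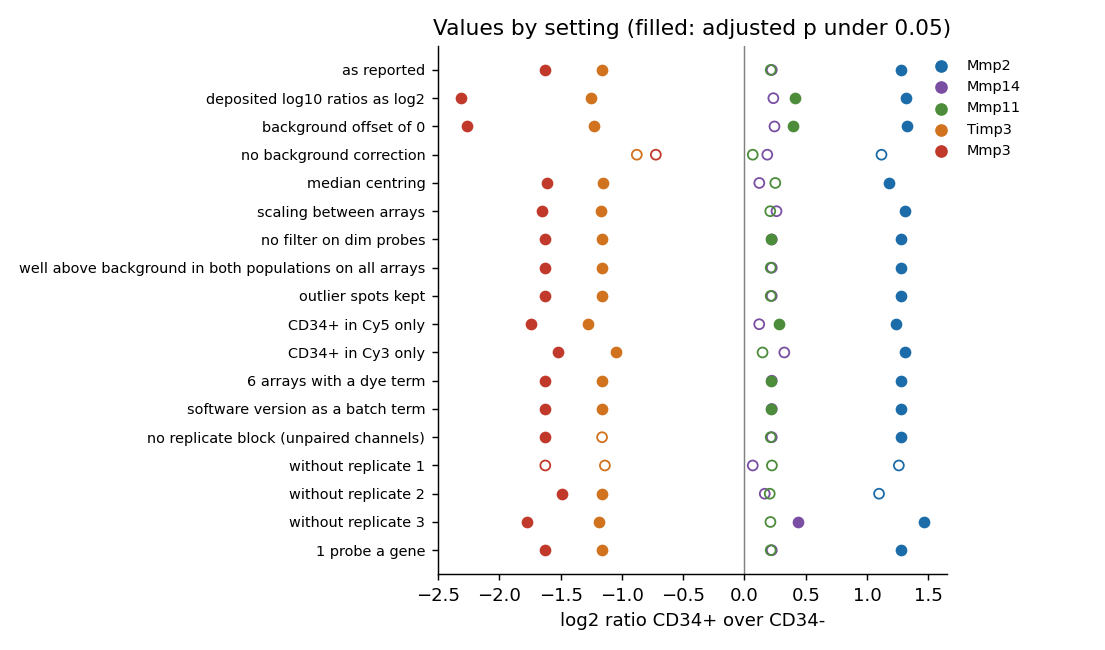
Log2 ratio of CD34+ over CD34- cells (horizontal axis) of Mmp2, Mmp14, Mmp11, Timp3 and Mmp3 as reported and under the 17 alternative settings (rows), with filled points where the adjusted p was under 0.05. Mmp2 stays between 1.10 and 1.47, Timp3 between -1.28 and -0.88 and Mmp3 between -2.31 and -0.72, and no gene changes sign. Rows that change only the filter on dim probes, the terms of the fit or the choice of probe hold the reported ratio by construction.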

How the data were processed

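The deposited scanner files give spot and local background intensities in both dyes, which Agilent Feature Extraction read from the scans, per the file headers. They also give deposited log10 ratios, Cy5 over Cy3, which were background-subtracted and dye-normalised in the same software, per the file headers. The authors' deposited value table equals the negative of these log10 ratios (largest difference 0; column medians 0, 0.00257, 0.00274, 0, 0.00187 and 0). Which dye held which fraction came from the labels. The labels number the replicate on 4 arrays, and the other 2 were taken as replicate 3 by elimination. The headers name software version A.7.5.1 for replicates 1 and 2 and A.6.1.1 for replicate 3.

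From the intensities of 21318 features per array that are not controls, ratios were computed with limma 3.58.1 (R 4.3.3), with normexp background correction at an offset of 50, and normalised within arrays (loess, control and outlier spots at weight 0). They were turned to CD34+ over CD34- and averaged first over the spots of each probe and next over both arrays of each replicate, since these carry the same extracts. A probe was tested if it was well above background in 1 fraction in at least 2 of 3 replicates (472 of 20868 left out) and carried no outlier mark on any array (182 left out). Between 92.9% and 97.7% of probes were well above background in a fraction on an array. The departure of the log2 ratios from 0 was tested by lmFit and eBayes in limma, with Benjamini-Hochberg adjustment. The offset understates changes, more so for dim probes. In simulated data 200 of 20214 probes were changed by 1 or 2 on the log2 scale. Of these, 89% and 99% were recovered, at a median 0.874 and 0.899 of the given size. The spread between simulated replicates was drawn at random from all tested probes, not from probes with changes of that size. Among the called genes the SD was 0.37 for Mmp2, 0.28 for Mmp3 and 0.047 for Timp3. Recovery at the spread of probes that change was not measured. The changed probes were never drawn from the dimmest tested probes, where Mmp11 and Mmp15 lie at brightness percentiles of 25.8 and 26.8. Recovery among such dim probes was therefore not measured.

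Brightness is the log2 intensity of a fraction after loess and scaling of the mean intensity between arrays (Aquantile), averaged over both dyes. Probes were named through RefSeq accessions in a table of assembly GRCm38.p6 (8947 probes) or through the description in the scanner file, 9717 of 20868 in all. A gene is represented by its brightest probe. The array files name no genome build, so the only positions given are those of the printed promoters, from RefSeq. Pairing lies within each array and comes from the labels. The deviations of the 2 channels of a replicate from the fraction means correlated with r of 0.799, 0.718 and 0.811, but both are read from the same spots.

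The genes described, the lists of other proteolysis genes and of markers, and the tests were chosen with earlier results of these data known. Named are all 9 genes, Cd34 and Itga6, from each list up to 3 rises and 3 falls that passed, or the smallest adjusted p where none did, the markers that passed in the lists of other cell types, and for each called gene the 3 genes with the nearest ratios. Genes outside this rule are marked as such. Alternatives changed the source of the ratios, background correction, normalisation, filter, outlier handling, dye orientation, replicate block, software version and the replicates used.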

Additional observations from a re-analysis of the deposited data

How the results depend on the processing

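Over 17 alternatives no tested gene among the metalloproteases and inhibitors, and none of the 14 other genes followed, changed direction. Alternatives that changed only the filter on dim probes, the terms of the fit or the choice of probe left the ratio as reported by construction. A change of direction was not possible in them. Of 20214 probes tested 2433 passed as reported, and 13 did without background correction (5590 at an unadjusted p under 0.05), 4284 with all 6 arrays and a dye term, 5358 with a batch term for the software version and 549 without the replicate block. Leaving out 1 replicate in turn gave 0 to 4243 probes, with 0 without replicate 1 (4648 at an unadjusted p under 0.05 in limma), 304 without replicate 2 and 4243 without replicate 3. Of the 9 genes described, 3 passed as reported, 0 without background correction (5 at an unadjusted p under 0.05 in limma), 2 without the replicate block and 0 to 5 when a replicate was left out, with 0 without replicate 1 (4 at an unadjusted p under 0.05) and 5 without replicate 3, where Mmp14 and Mmp15 were added. Of the other proteolysis genes, 10 passed as reported, 0 without background correction (15 at an unadjusted p under 0.05), 16 with the software version term, 3 without the replicate block, and 0 to 15 when a replicate was left out, with 0 without replicate 1 (13 at an unadjusted p under 0.05), 4 without replicate 2 and 15 without replicate 3. The cause of these shifts was not tested beyond the fewer replicates or the changed estimate of the spread that each alternative brings by construction. With the software version term, replicate 3 adds nothing to the estimate of a probe's spread, which then rests on replicates 1 and 2. The median of all probes stayed between -0.0001 and 0.033 under every alternative. Timp1 was too dim to be tested, and the size of the Mmp3 fall ran from -2.31 to -0.72 with the background correction.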
